A study of Mus musculus with 26 samples.

Results

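The T cell receptor alpha variable (Trav) segments were taken as all genes whose symbol starts with Trav in the deposited tables, which gave 108 of 25814 genes. All 108 lie on the plus strand of mouse chromosome 14 (GRCm38) between 52427928 and 53977678, and the tables class each as a T cell receptor variable gene. They were read in 26 mRNA-seq libraries of sorted T cells from C57Bl/6 mice, taken from Peyer's patches, the lymphoid follicles of the small intestine. CD4+ T cells came from mice on a conventional diet (n = 6) or on an elemental diet (n = 6), and CD44+ (n = 7) and CD44- (n = 7) T cells came from mice on the conventional diet. The CD4+ libraries were made from 22 ng of RNA with poly(A) selection, and the CD44+ and CD44- libraries from 1 ng with a low-input kit. The 2 pairs of groups were therefore never tested against each other. The labels do not say whether replicates were separate animals, whether the CD44 sorts were also gated on CD4, or what age or sex the mice were. The p-values then measure only the spread between these libraries, part of which may be technical.

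A T cell builds its receptor alpha chain by joining 1 variable segment to 1 joining segment upstream of the constant gene Trac. The variable segment encodes most of the antigen-facing domain, including the loops that lie over the major histocompatibility complex, and only a joined segment in a T cell is normally transcribed at high level. The share of alpha chain RNA that carries each segment therefore describes the repertoire of a T cell pool. In mouse the locus holds duplicated blocks of segments. Their copies are named with a d or an n, and segments with dv in the name can also join the delta chain. Fixed pairings mark innate-like T cells: Trav11 with Traj18 in invariant natural killer T cells, and Trav1 with Traj33 in mucosal-associated invariant T cells.

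Of the 108 segments, 46 had plain names, 34 were d copies and 28 were n copies, in 21 numbered subgroups. The copies are so alike that the mapping of short reads sets part of every value. In 17 pairs of segments the variable exon, the exon that codes for the body of the V domain, was identical base for base. In 16 of these pairs the copy that comes second along the locus had 0 reads in all 26 libraries, and in the other pair it had 3. The first copies held 741 to 16467 reads each, and 15 of the 17 had no uniquely mapped read. A d segment such as Trav14d-1 thus stands for itself and its identical n copy. Uniquely mapped reads made up 94.9% of the reads of plain segments, 7.49% of those of d copies and 67.0% of those of n copies. In all, 17 segments had no read in any library.

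The sequences below are variable exons from the GENCODE M21 annotation of GRCm38, whose gene IDs matched all 108 segments. The first 2 sets are shown because their n copies had unique reads in every elemental library and in no conventional one. Capitals mark the bases that differ within a set. Trav6d-6 (chr14:52822062-52822359) and Trav6n-6 (chr14:53132840-53133137) differ at 8 of 298 bases.
Trav6d-6: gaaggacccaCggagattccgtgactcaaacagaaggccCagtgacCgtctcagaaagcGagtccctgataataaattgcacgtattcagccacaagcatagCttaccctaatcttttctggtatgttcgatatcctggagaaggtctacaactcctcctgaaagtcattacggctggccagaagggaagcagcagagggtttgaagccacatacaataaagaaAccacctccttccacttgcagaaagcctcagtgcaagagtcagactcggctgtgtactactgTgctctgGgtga
Trav6n-6: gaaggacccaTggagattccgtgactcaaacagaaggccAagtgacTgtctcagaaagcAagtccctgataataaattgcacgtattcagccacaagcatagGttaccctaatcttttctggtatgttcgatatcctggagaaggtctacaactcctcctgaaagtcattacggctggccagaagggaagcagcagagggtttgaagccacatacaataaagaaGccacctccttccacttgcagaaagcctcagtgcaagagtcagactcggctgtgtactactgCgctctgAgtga

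Trav10d (chr14:52811206-52811496) and Trav10n (chr14:53122320-53122610) differ at 3 of 291 bases, the narrowest difference among the printed sets.
Trav10d: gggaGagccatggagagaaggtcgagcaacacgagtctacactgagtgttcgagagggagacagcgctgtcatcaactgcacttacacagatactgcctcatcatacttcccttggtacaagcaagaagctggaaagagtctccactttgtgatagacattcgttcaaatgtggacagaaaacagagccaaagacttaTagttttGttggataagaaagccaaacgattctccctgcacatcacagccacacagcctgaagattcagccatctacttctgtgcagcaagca
Trav10n: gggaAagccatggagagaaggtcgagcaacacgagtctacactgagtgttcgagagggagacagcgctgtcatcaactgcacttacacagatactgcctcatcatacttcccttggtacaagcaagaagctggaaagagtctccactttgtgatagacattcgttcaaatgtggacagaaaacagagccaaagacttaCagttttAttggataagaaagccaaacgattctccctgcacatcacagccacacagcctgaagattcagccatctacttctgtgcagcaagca

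Within subgroup Trav14, the set below holds 1 segment that rose on the elemental diet (Trav14d-3-dv8), 1 that fell (Trav14-3) and the n copy between them on the locus. Trav14-3 (chr14:53763386-53763685) differs from Trav14n-3 (chr14:53370267-53370566) at 6 bases and from Trav14d-3-dv8 (chr14:53078737-53079036) at 8, and Trav14n-3 differs from Trav14d-3-dv8 at 10, of 309 bases, of which the first 300 are printed. Capitals mark the 12 positions at which the 3 are not all alike.
Trav14-3: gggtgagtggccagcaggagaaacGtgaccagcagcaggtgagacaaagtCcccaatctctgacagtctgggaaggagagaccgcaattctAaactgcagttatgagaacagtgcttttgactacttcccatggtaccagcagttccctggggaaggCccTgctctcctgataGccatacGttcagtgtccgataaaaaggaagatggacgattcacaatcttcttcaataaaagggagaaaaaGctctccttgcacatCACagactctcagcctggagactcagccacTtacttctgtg
Trav14n-3: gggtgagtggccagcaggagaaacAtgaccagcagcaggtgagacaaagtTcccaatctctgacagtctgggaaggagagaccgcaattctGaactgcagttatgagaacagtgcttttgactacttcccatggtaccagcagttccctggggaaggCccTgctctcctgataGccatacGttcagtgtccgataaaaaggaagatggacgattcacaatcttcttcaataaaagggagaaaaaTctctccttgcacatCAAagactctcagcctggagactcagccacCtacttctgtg
Trav14d-3-dv8: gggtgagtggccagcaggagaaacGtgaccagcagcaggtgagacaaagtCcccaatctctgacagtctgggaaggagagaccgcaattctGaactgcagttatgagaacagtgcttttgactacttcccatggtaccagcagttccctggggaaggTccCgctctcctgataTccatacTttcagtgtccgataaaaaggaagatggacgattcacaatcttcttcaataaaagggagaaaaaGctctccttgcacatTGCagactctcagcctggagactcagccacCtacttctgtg

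Trav14d-1 (chr14:52855855-52856154, the first 300 of 312 bases) had the highest mean level of all segments in both comparisons. Its exon is identical to that of Trav14n-1 and is printed without capitals.
Trav14d-1: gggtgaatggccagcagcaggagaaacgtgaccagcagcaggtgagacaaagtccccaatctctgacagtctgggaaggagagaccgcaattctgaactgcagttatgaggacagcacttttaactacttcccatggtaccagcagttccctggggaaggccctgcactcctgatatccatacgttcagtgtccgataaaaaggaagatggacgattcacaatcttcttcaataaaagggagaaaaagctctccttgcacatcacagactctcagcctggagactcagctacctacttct

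Trav11d (chr14:52824623-52824912) held 1578 of the reads given to the invariant natural killer T cell segment, and Trav11 held 12. No Trav11d read mapped uniquely, so its level does not show which of these near-identical copies was transcribed.
Trav11d: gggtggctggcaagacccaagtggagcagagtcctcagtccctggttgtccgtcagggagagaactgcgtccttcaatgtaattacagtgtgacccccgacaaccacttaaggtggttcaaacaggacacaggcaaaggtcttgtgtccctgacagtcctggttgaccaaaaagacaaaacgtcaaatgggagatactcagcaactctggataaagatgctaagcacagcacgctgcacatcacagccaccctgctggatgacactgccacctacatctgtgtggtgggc

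Library depth ran from 17159084 to 26643133 total gene reads in the CD4+ libraries and from 9624785 to 14765572 in the CD44+ and CD44- libraries. Trav segments held 5121 to 8266 of these reads per CD4+ library and 6443 to 18059 per CD44+ or CD44- library. The labelled cell type was checked against its markers. The 11 alpha-beta T cell markers summed to 5896 to 6464 CPM (reads per 1000000 total gene reads) in conventional and 5290 to 5980 CPM in elemental libraries. On the elemental diet 4 of the 11 were called lower (Cd28, Cd5, Cd6 and Cd3e) and none higher, where 7.96% of all genes tested were called lower. Between CD44+ and CD44- none of the 11 was called. Cd4 ran from 158 to 504 CPM in the CD4+ libraries. Cd44 had a median of 147 CPM (106 to 368) in CD44+ libraries and of 86.5 CPM (60.5 to 150) in CD44- libraries. The ranges overlapped, and the gene was 0.90 ± 0.30 (log2 fold change ± SE) higher with an edgeR adjusted p of 0.178.

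Summed over all 108 segments, Trav reads ran from 274 to 365 CPM with a median of 311 in the 6 conventional CD4+ libraries and from 265 to 317 CPM with a median of 284 in the 6 elemental libraries. The groups overlapped, and the log2 ratio of the means was -0.14 against a replicate SD of 0.113. Set against Trac, the constant gene of the same chain, the order turned. There were 445 to 481 Trav reads per 1000 Trac reads in conventional libraries and 473 to 539 in elemental libraries, a log2 ratio of 0.10. In bulk RNA, fewer T cells and less receptor RNA per T cell cannot be told apart.

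Summed Trav reads in CD44- libraries ran from 621 to 1223 CPM (median 809) and in CD44+ libraries from 548 to 877 CPM (median 703), again with overlap. The log2 ratio of CD44+ to CD44- was -0.21. Per 1000 Trac reads the values were 422 to 986 in CD44- libraries (median 563) and 449 to 591 in CD44+ libraries (median 534). CD44- replicate 6 stood apart with 986, where the other 6 CD44- libraries ended at 598.

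**Figure D1:**
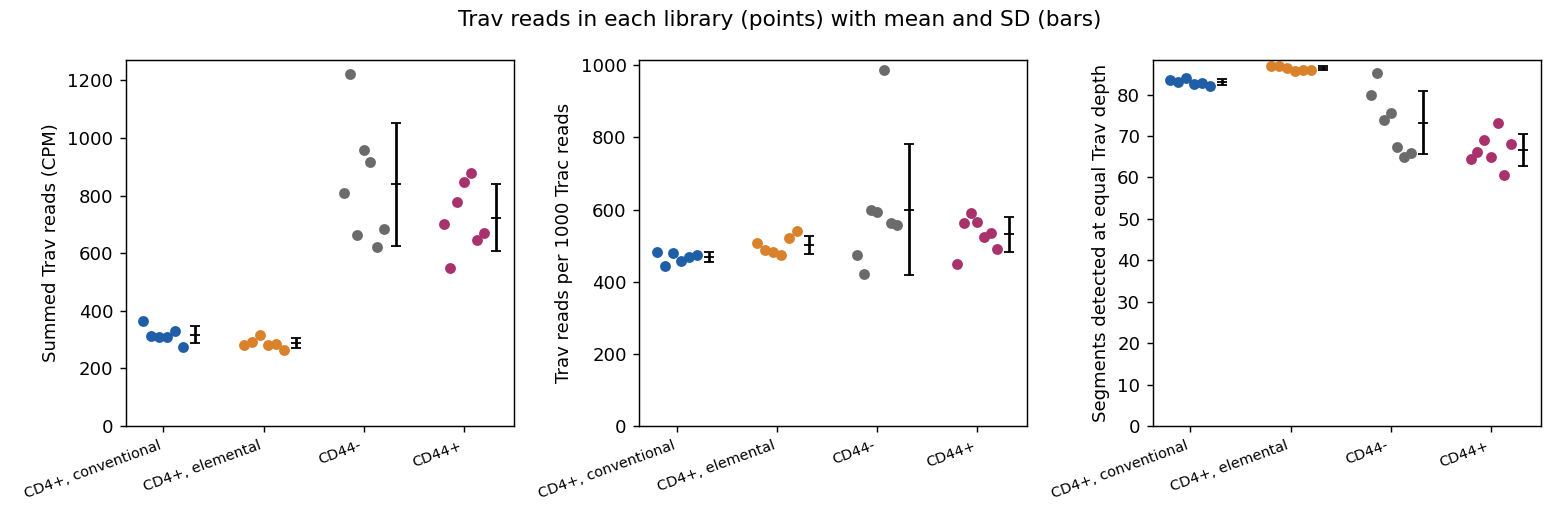
Each point is 1 library. The panels plot summed Trav reads in CPM, Trav reads per 1000 Trac reads, and the number of segments detected after scaling each library to 5121 Trav reads; bars give the mean and SD. The 2 CD4+ groups overlap in the left and middle panels and separate in the right one, where elemental libraries lie at 85.7 to 87 segments and conventional ones at 81.9 to 84.0.

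The number of segments with a read differed between the diets without overlap. Conventional libraries had 82 to 84 of the 108 segments and elemental libraries 86 or 87, although the elemental libraries held fewer Trav reads. At an equal depth of 5121 Trav reads the expected numbers were 81.9 to 84.0 and 85.7 to 87.0. The gap lay in 22 neighbouring segments from Trav16d-dv11 to Trav9n-4, a stretch picked out after its values were seen. Within it 4 to 6 segments had a read in conventional and 8 or 9 in elemental libraries, and among the other 86 segments 77 to 79 and 77 to 78 did, with overlap. The effective number of segments (the exponential of the Shannon entropy of the shares) was 57.6 to 62.2 in conventional and 56.8 to 60.8 in elemental libraries, with overlap.

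Segment by segment, 80 of the 108 passed the filter on low counts in the diet comparison. On the elemental diet 3 were higher and 4 lower at an edgeR adjusted p under 0.05. With no scaling factor 2 were higher and 6 lower, and with no filter on low counts 6 were higher and 3 lower. Among all 13088 genes tested, 18.0% were called (10% higher and 7.96% lower), so the 7 of 80 segments called are a smaller share than that of genes in general, a difference that was not tested. The median log2 fold change was -0.085 over the 80 segments and -0.007 over all genes. Before adjustment, 5 segments had a p under 0.05 and a higher level, and 11 a lower one.

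The largest called increase by fold was Trav9n-4. It had 0 to 0.699 CPM in conventional libraries (median 0.457, 0 in 1 library) and 0.626 to 2.42 CPM in elemental libraries (median 1.18), ranges that barely overlapped. The log2 fold change was 1.80 ± 0.57 with an edgeR adjusted p of 0.0380. The call was lost, with an adjusted p up to 0.0955, in 9 of the 12 fits that left out 1 library.

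Trav14d-3-dv8, which can serve the alpha or the delta chain, had 1.89 to 3.91 CPM in conventional libraries (median 2.50) and 3.21 to 6.01 CPM in elemental libraries (median 5.34). The ranges overlapped through conventional replicate 3, and the log2 fold change was 0.99 ± 0.25 (edgeR adjusted p 0.0146). Trav14d-1, a member of the mouse V alpha 2 family, had 11.1 to 16.1 CPM in conventional libraries (median 12.3) and 15.1 to 20.5 CPM in elemental libraries (median 18.6). Its log2 fold change was 0.58 ± 0.14 (edgeR adjusted p 0.0116), and its share of Trav reads did not overlap, at 3.41% to 4.87% and 5.11% to 7.62%. This row also holds any reads of Trav14n-1, which lies among the 22 segments from Trav16d-dv11 to Trav9n-4.

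Among the decreases, Trav7-6 had 2.01 to 2.89 CPM in conventional libraries (median 2.39) and 0.429 to 1.19 CPM in elemental libraries (median 0.994). The groups did not overlap, and the log2 fold change was -1.36 ± 0.32 (edgeR adjusted p 0.00929). Of all genes with a read in these libraries, 4.90% had groups without overlap. Of the 90 segments with a read, 3 lay wholly higher on the elemental diet (Trav10n, Trav6n-6 and Trav13n-1) and 3 wholly lower (Trav7-1, Trav7-6 and Trav16n).

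Trav7-1 had 2.72 to 4.32 CPM in conventional and 1.51 to 2.21 CPM in elemental libraries, with a log2 fold change of -0.78 ± 0.25 (edgeR adjusted p 0.0378). Trav16n had 3.39 to 8.23 CPM in conventional and 2.55 to 3.39 CPM in elemental libraries, with a log2 fold change of -0.79 ± 0.22 (edgeR adjusted p 0.0221). Both fell without overlap of the groups in CPM, but for Trav16n the groups all but touched at 3.39 CPM. By share of Trav reads Trav7-1 still did not overlap, and Trav16n did. The calls of Trav7-1 and Trav14-3 were each lost in 7 of the 12 fits without 1 library, and that of Trav16n in 1. Trav14-3 had 2.06 to 4.44 CPM in conventional and 0.663 to 2.50 CPM in elemental libraries, with a log2 fold change of -1.04 ± 0.33 (edgeR adjusted p 0.0378).

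**Figure D2:**
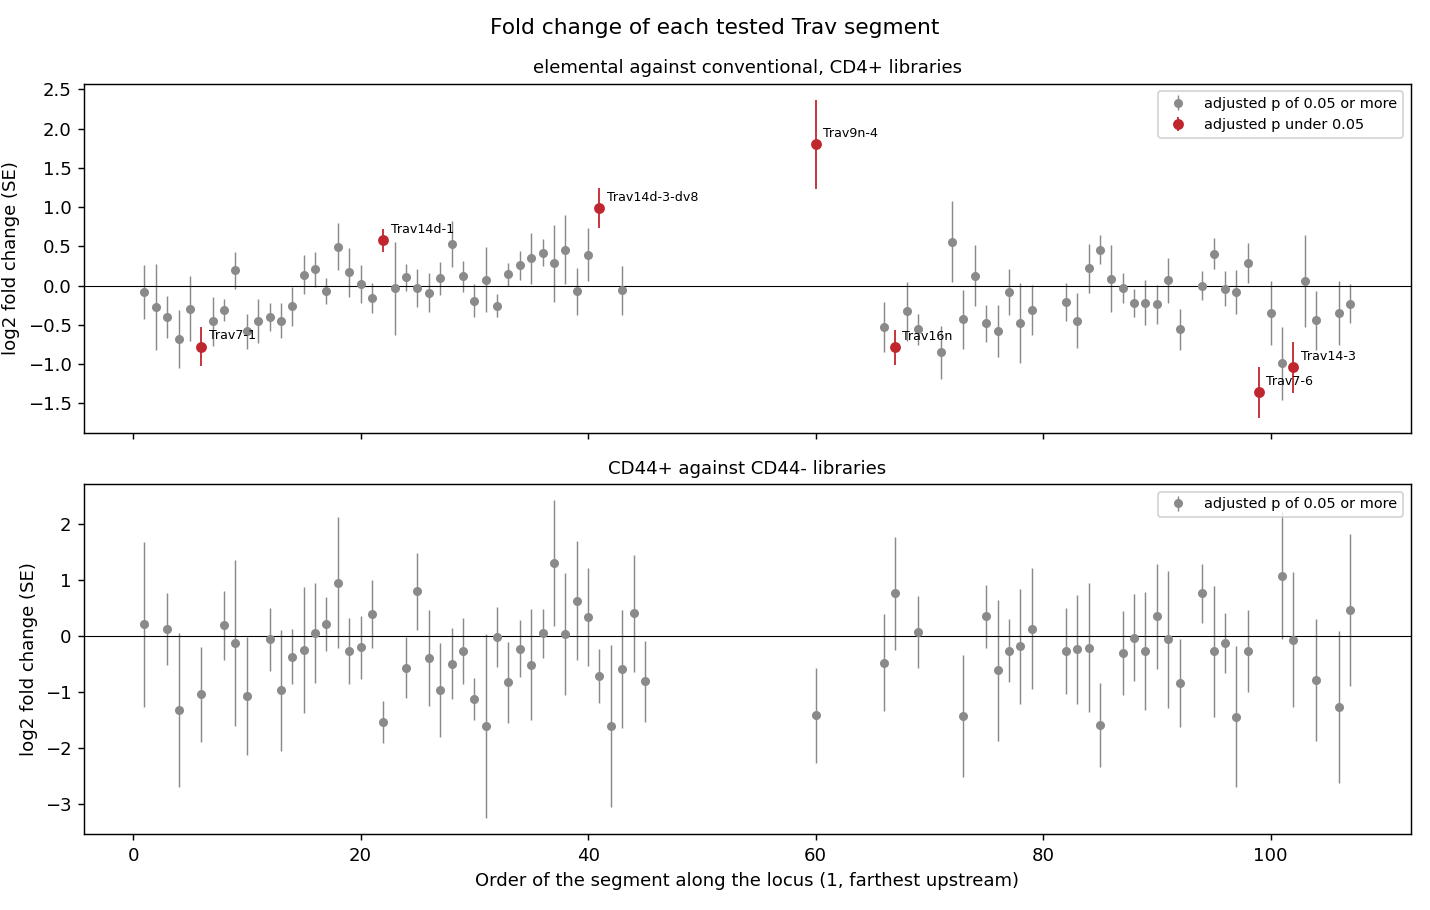
Log2 fold change with its SE for each tested segment, plotted by its order along the locus, for the diets (top, 80 segments) and for CD44+ against CD44- (bottom, 70 segments). Red points passed an adjusted p of 0.05: 7 segments in the top panel and none in the bottom panel.

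The remaining abundant segments did not pass. Levels of different segments are compared per kilobase of gene, since the genes differ in length. Each gene is longer than its variable exon (264 to 312 bases), so the order depends on this choice of length. By mean level per kilobase, Trav7d-2 (30.0) stood above Trav14d-1 (23.5), Trav4d-4 (20.3), Trav7d-4 (20.2) and Trav6d-6 (20.1) in conventional libraries. In elemental libraries Trav14d-1 (32.9) came first, before Trav4d-4 (23.1) and Trav7d-2 (22.9). Per library, Trav7d-2 had 12.8 to 17.1 CPM in conventional and 9.59 to 16.2 CPM in elemental libraries, with a log2 fold change of -0.31 ± 0.14 and an edgeR adjusted p of 0.125. Trav4d-4 had 8.75 to 12.1 and 6.64 to 17.1 CPM, at 0.26 ± 0.18 on the log2 scale with an adjusted p of 0.334. The other segments with the highest mean CPM (Trav9d-4, Trav7d-4, Trav6d-6, Trav3d-3, Trav14n-3, Trav9-2 and Trav9d-2) had log2 fold changes between -0.56 and 0.14 and did not pass either. The lowest of these was Trav14n-3, with 7.12 to 11.4 CPM in conventional and 4.59 to 7.98 CPM in elemental libraries and an adjusted p of 0.0639.

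With the segments summed by subgroup, 19 subgroups were tested and 1 was called, Trav7, against 18.1% of genes in that fit. Trav7 summed to 50.1 to 56.5 CPM in conventional libraries (median 51.9) and to 32.1 to 45.8 CPM in elemental libraries (median 37.4), with no overlap. It fell by a log2 fold change of -0.40 ± 0.09 (edgeR adjusted p 0.00898). Its share of Trav reads was 14.5% to 19.6% and 12.1% to 14.5%. By share the groups did not overlap but all but touched, at 14.46% in both conventional replicate 1 and elemental replicate 3. Of its 13 segments 9 were tested, 8 had a negative fold change, and 2 were called, both lower.

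The other large subgroups did not pass. Trav14, the V alpha 2 family, held 12.8% to 16.6% of Trav reads in conventional and 13.5% to 17.9% in elemental libraries, and its summed level differed by 0.13 ± 0.10 on the log2 scale (edgeR adjusted p 0.375). Its members went apart: of 7 tested, 2 rose (Trav14d-1 and Trav14d-3-dv8) and 1 fell (Trav14-3). Trav9 held 12.9% to 14.9% and 13.2% to 16.9%, Trav6 9.35% to 11.7% and 11.1% to 12.5%, Trav4 8.35% to 10.4% and 6.54% to 11.4%, and Trav13 6.81% to 8.54% and 6.85% to 10.3%, all with overlap.

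**Figure D3:**
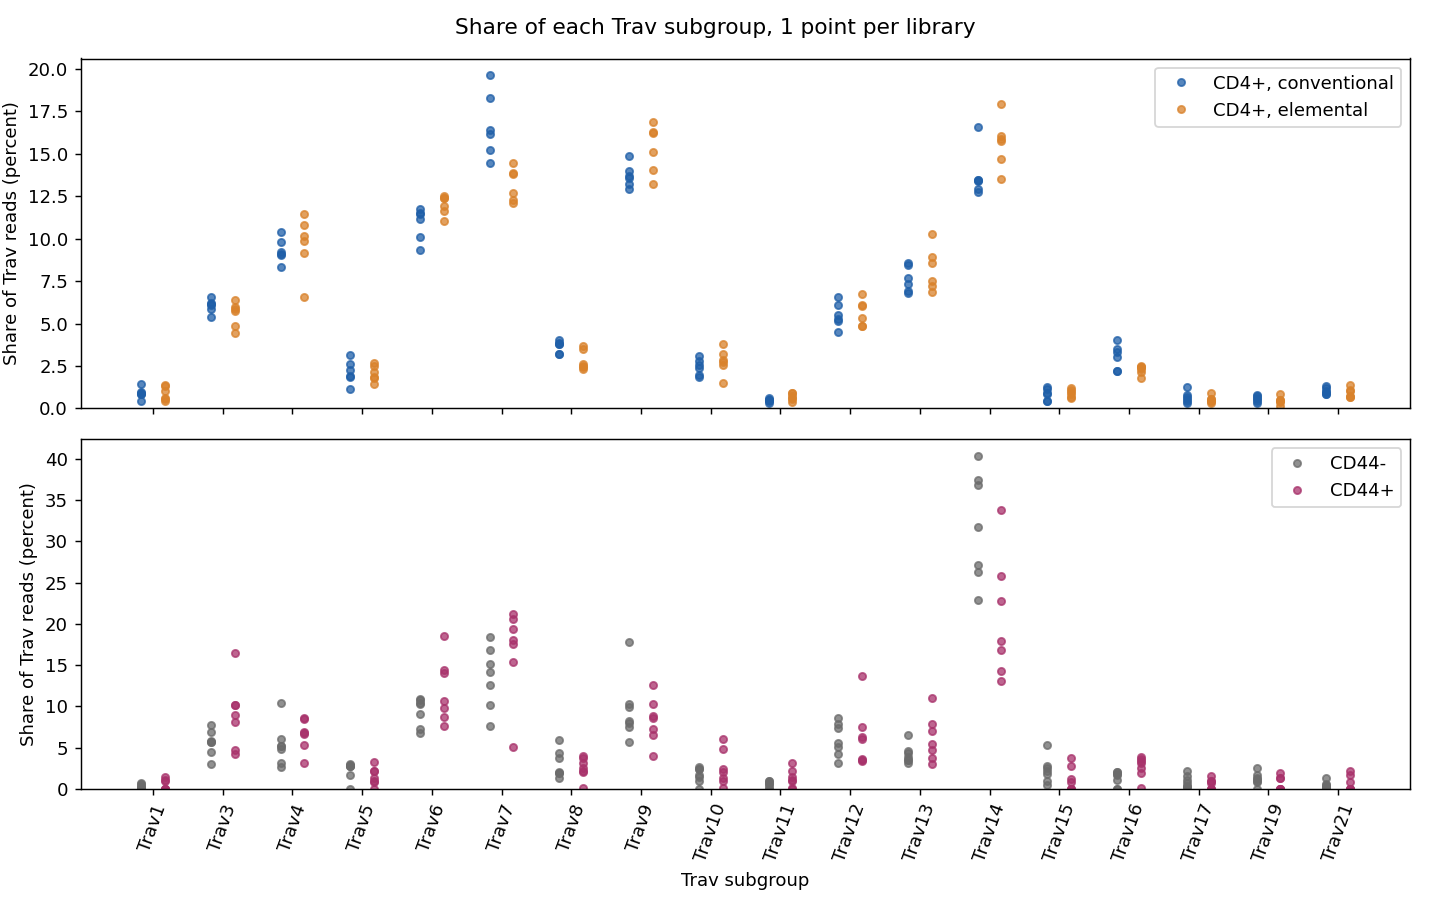
Share of Trav reads in percent for each subgroup with a mean share above 0.5%, 1 point per library, for the diets (top) and for CD44- and CD44+ (bottom). In the top panel Trav7 is the subgroup whose groups do not overlap, although the nearest libraries of the 2 diets both lie at 14.46%. In the bottom panel Trav14 spans 22.9% to 40.4% in CD44- and 13.1% to 33.9% in CD44+ libraries.

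Copy classes also shifted. The d copies held 54.4% to 57.5% of Trav reads in conventional libraries and 58.5% to 62.0% in elemental libraries, without overlap, and plain segments 35.7% to 39.0% and 33.1% to 35.1%, also without overlap. All 34 d copies were tested, with a median log2 fold change of 0.098 and 2 called higher. Of 46 plain segments 40 were tested, with a median of -0.256, 9 positive and 31 negative, and 3 called lower. Among all genes tested, 10% were called higher and 7.96% lower. The 2 of 34 d copies and 3 of 40 plain segments called are no larger shares than these. The calls alone thus show no excess in either class.

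The positions of the called segments led to a look at uniquely mapped reads along the locus, a choice made after their values were seen. From Trav16d-dv11 to Trav9n-4 (chr14:53047287-53295030, 248 kb, 22 segments) unique reads were nearly missing from the conventional CD4+ libraries. Counts there were 3, 6, 0, 1, 3 and 0 unique reads in conventional replicates 1 to 6, and 85, 119, 90, 116, 54 and 117 in elemental replicates 1 to 6. That is 0% to 0.178% of all unique Trav reads in conventional and 2.65% to 5.49% in elemental libraries. The CD44+ and CD44- libraries, also from mice on the conventional diet, held 75 to 467 and 215 to 833 unique reads there, or 2.67% to 13.2% and 6.45% to 18.8%. Among all groups, the low counts were seen in the 6 conventional CD4+ libraries only. The CD44+ and CD44- libraries differed from them in sort, RNA input and kit, and the cause was not tested.

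Trav6n-6 had no unique read in any conventional library and 6, 22, 8, 11, 12 and 16 in elemental replicates 1 to 6. Against a floor of 3 reads over the conventional group, its elemental level was at least 27.5-fold higher. It was the only gene of all 25814 with no unique read in every conventional library and at least 5 in every elemental one. With at least 1 asked for instead of 5, there were 3 such genes: Trav6n-6, Trav10n and Olfr1256. In CD44+ libraries Trav6n-6 had 7 to 63 unique reads, and in CD44- libraries 3 to 123. Trav10n likewise had no conventional unique read, and 7, 10, 14, 8, 1 and 9 in the elemental libraries, at least 17.99-fold higher against that floor. With the 8 and 3 distinguishing bases printed above, reads of these n copies that cross such a base can be told from reads of their d copies.

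Trav14d-3-dv8 summed to 11 unique reads over the conventional libraries and to 289 over the elemental ones (20 to 65 per library), 28.9-fold higher per unique read sequenced. Trav7n-4 had 0 and 18, Trav13d-4 0 and 18, and Trav16d-dv11 0 and 15, which is at least 6.61-fold, 6.61-fold and 5.51-fold higher. Trav9n-4 had 1 and 80, a ratio of 88.1 with a 95% counting interval of 15.4 to 3524, and Trav13n-1 had 1 and 35, a ratio of 38.6 with an interval of 6.48 to 1566. These intervals (exact binomial) and floors cover counting error only.

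In an edgeR fit of unique reads with no filter on low counts, 10.9% of 19309 genes were called, 5.86% higher and 5.08% lower. Of the 72 segments in that fit 8 were called higher and 2 lower (Trav7-6 and Trav14-3). All of the 8 lie in this stretch: Trav14d-3-dv8 (adjusted p 2.06e-05), Trav9n-4 (0.000556), Trav6n-6 (0.000624), Trav10n (0.00380), Trav13n-1 (0.0162), Trav7n-4 (0.0367), Trav13d-4 (0.0433) and Trav16d-dv11 (0.0452). This fit was added after the data were seen, and the stretch was bounded on the same unique reads. The place of the 8 in it was thus set by that choice, and their adjusted p-values are no separate support. The stretch as a whole got no test, since it was chosen on these values. Of its other 14 segments, Trav6n-5 had 0 unique reads on the conventional diet and 2 on the elemental one, and 13 had none in either group. Those 13 were n copies whose variable exon is identical to a d copy.

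Most flanking segments differed from this pattern. Upstream, Trav13d-3 had 37 unique reads summed over conventional and 38 over elemental libraries. Trav8d-2, which adjoins the stretch, had 15 and 52, or 3.82-fold higher per unique read sequenced. It was not called in the unfiltered fit of unique reads (edgeR adjusted p 0.151). Downstream, Trav13n-3 had 26 and 30, Trav8n-2 283 and 173, Trav16n 379 and 195, Trav13n-4 185 and 123, and Trav14n-3 708 and 427. Outside the stretch 63 segments had any unique read in the elemental group, and all 63 had any in the conventional group too. The ends of the stretch were set on these reads, so this count is no separate support for it.

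Counted with multiply mapped reads, the 22 segments took 2.19% to 3.36% of Trav reads in conventional and 4.25% to 5.37% in elemental libraries, so that the gap was much narrower but the groups still did not overlap. With these 22 rows left out, the other d copies held 52.5% to 55.6% and 55.1% to 58.8% of Trav reads, and these ranges overlapped. Leaving out the rows does not take out the stretch, since 13 of its n copies have the exon of a d copy outside it, and the reads of such a pair sit in the d row. Those 13 d rows held 17.8% to 21.9% and 21.2% to 23.8% of Trav reads, with overlap, and the called Trav14d-1 is one of them. The labels give the same strain, C57Bl/6, for all groups and no substrain, colony or litter. A difference between the mice in this part of chromosome 14 and an effect of diet cannot be told apart in these groups.

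**Figure D4:**
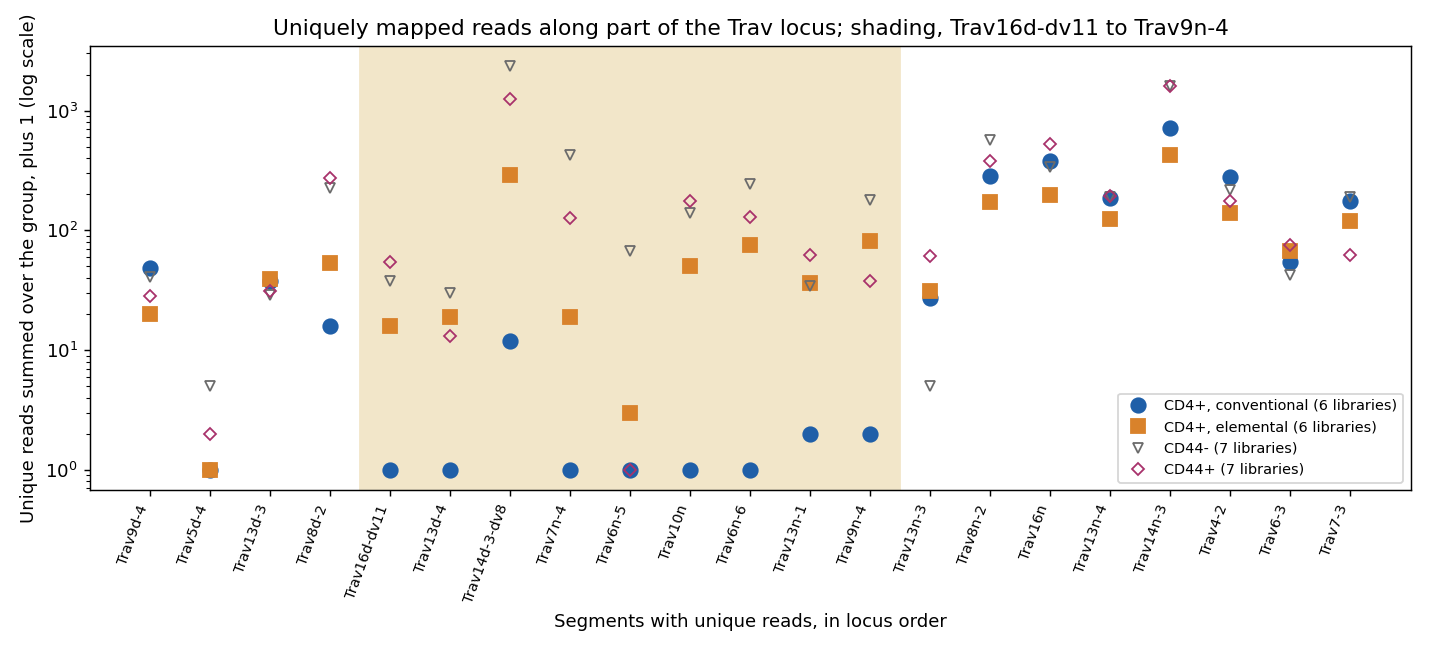
Uniquely mapped reads summed over the libraries of each group, plus 1, on a log axis, for segments with unique reads in locus order around the shaded stretch. Inside the shading the conventional CD4+ points lie at 0 or 1 unique reads except for Trav14d-3-dv8 with 11, while the other 3 groups reach 289 (elemental), 1238 (CD44+) and 2350 (CD44-) reads for that segment.

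The invariant segments showed no called difference between the diets. Trav1 had 1.34 to 4.44 CPM in conventional libraries (median 2.86) and 1.14 to 3.97 CPM in elemental libraries (median 2.46), at -0.08 ± 0.34 on the log2 scale (edgeR adjusted p 0.896). Trav11d had 1.05 to 2.02 CPM (median 1.46) and 1.11 to 2.61 CPM (median 1.99), at 0.50 ± 0.30 (adjusted p 0.260). Trav11, whose exon is 1 base longer than that of Trav11d and otherwise alike, had a read in 1 CD4+ library of each diet and was not tested. Their joining segments were not called either, Traj18 at 0.17 ± 0.44 (adjusted p 0.816) and Traj33 at -0.47 ± 0.53 (adjusted p 0.559). Some other markers of these cells did move. Klrb1c, the NK1.1 receptor gene, had 42.5 to 61.6 CPM in conventional and 18.5 to 30.9 CPM in elemental libraries, without overlap, and fell by 0.95 ± 0.13 on the log2 scale (edgeR adjusted p 0.00027). Slamf6, a receptor of the SLAM family, also fell (-0.62 ± 0.09, adjusted p 0.000486). Zbtb16, which encodes the factor PLZF of innate-like T cells, was at 0.04 ± 0.49 and Il18r1 at -0.13 ± 0.23, neither called. Other T cells also express several of these genes.

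Of a list of 25 genes for the receptor complex, its joining by recombination and its nearest signalling partners, 23 were tested between the diets, with 2 higher, 3 lower and a median log2 fold change of -0.018. These 5 of 23 stand beside the 18.0% of all genes called, and before adjustment 2 higher and 9 lower genes had a p under 0.05. Dntt, the enzyme that adds untemplated bases at the joins, had 3.05 to 6.49 CPM in conventional and 6.54 to 11.3 CPM in elemental libraries. These groups did not overlap, and Dntt rose by 1.28 ± 0.21 on the log2 scale (edgeR adjusted p 0.0011). Cd8b1, a chain of the CD8 co-receptor, rose by 0.53 ± 0.16 (adjusted p 0.0349). Cd8a, the other CD8 chain, had 24.1 to 59.9 CPM and 12.5 to 33.5 CPM, at -0.65 ± 0.28 (adjusted p 0.123), and the sum of both overlapped at 36.0 to 75.1 and 30.0 to 59.9 CPM.

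Cd4, the co-receptor the sort was made on, had 191 to 504 CPM in conventional and 158 to 289 CPM in elemental libraries, and its log2 fold change was -0.58 ± 0.17 (edgeR adjusted p 0.0283). Zap70, a kinase bound to the activated receptor (log2 fold change -0.27 ± 0.06, adjusted p 0.01004), and the signalling chain Cd3e (log2 fold change -0.25 ± 0.08, adjusted p 0.0474) were also lower. Trac had 577 to 759 CPM and 492 to 658 CPM, and its log2 fold change of -0.15 ± 0.06 did not pass (adjusted p 0.102). Trbc1 and Trbc2, the beta chain constant genes, had log2 fold changes of -0.01 ± 0.08 and 0.00 ± 0.08.

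Markers of other cells moved with diet, and their part in these results was not tested. The 7 epithelial markers summed to 72.0 to 702 CPM in conventional and 661 to 1303 CPM in elemental libraries, with 4 of 7 called higher. The 8 myeloid and dendritic markers summed to 254 to 325 CPM and 372 to 738 CPM, with 8 of 8 called higher. The 4 germinal centre B cell markers summed to 37.2 to 92.4 CPM and 6.87 to 14.5 CPM, with 4 of 4 called lower. The 8 B cell markers summed to 373 to 694 CPM and 182 to 406 CPM, and the 5 plasma cell markers to 1025 to 1998 CPM and 378 to 806 CPM, with 2 and 3 called lower. None of these markers was at 0 in every library of a CD4+ group.

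Between CD44+ and CD44- cells, 70 segments were tested and none was called by edgeR at an adjusted p under 0.05. Of all 10976 genes 0.920% were called. The SEs of the 70 log2 fold changes ran from 0.37 to 1.65 (median 0.86), against 0.14 to 0.60 (median 0.28) between the diets, so a missing call does not show that the groups were alike. At an unadjusted p under 0.05, 3 segments were lower in CD44+ libraries and none was higher, about as many as chance alone gives in 70 tests. DESeq2 called 2 segments, both lower, where it called 679 of all 10976 genes. The median log2 fold change was -0.254 over the segments and 0.005 over all genes. With the library size set to summed Trav reads, so that a fold change is one of the share, the median turned to 0.062.

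The 3 segments were all of subgroup Trav14. Trav14d-1 had 43.7 to 158 CPM in CD44- libraries (median 124) and 26.0 to 59.0 CPM in CD44+ libraries (median 39.5), with overlap through CD44- replicate 8. Its log2 fold change was -1.54 ± 0.37 with an edgeR adjusted p of 0.0605, and leaving out 1 library moved that p between 0.0259 and 0.127. Trav14d-2 had 29.4 to 45.3 CPM in CD44- libraries (median 35.4) and 13.9 to 26.8 CPM in CD44+ libraries (median 16.3). It was the only segment whose groups did not overlap, as did 0.644% of all genes with a read, and its log2 fold change of -1.13 ± 0.37 had an adjusted p of 0.167.

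Trav14-1, which lies in the plain part of the locus, had a log2 fold change of -1.59 ± 0.75 with an edgeR adjusted p of 0.373. By share, Trav14d-2 took 2.69% to 5.70% of Trav reads in CD44- and 1.99% to 3.16% in CD44+ libraries. Trav14d-1 took 6.38% to 18.8% and 3.68% to 10.6%. Both shares overlapped between the groups.

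Summed, Trav14 had 157 to 387 CPM in CD44- libraries (median 244) and 92.1 to 287 CPM in CD44+ libraries (median 142). It held 22.9% to 40.4% (median 31.8%) and 13.1% to 33.9% (median 17.9%) of Trav reads. The log2 fold change was -0.99 ± 0.30 with an edgeR adjusted p of 0.141, so none of the 18 subgroups tested was called, where 0.943% of genes in that fit were. The same sum was called by DESeq2 at -0.95 ± 0.32 (adjusted p 0.044), in a fit that called 680 of 10924 rows. Of 7 Trav14 segments tested, 6 had a negative fold change.

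CD44+ replicate 5 differed from its group within this subgroup. Its Trav14n-3 had 119 CPM where the other 6 CD44+ libraries had 7.23 to 27.1, and it took 13.99% of that library's Trav reads. The same library had the highest Trav14 share of the group. Without it the log2 fold change of summed Trav14 was -1.22, the largest drop of the 14 fits that left out 1 library, whose adjusted p ran from 0.0774 to 0.260.

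The other abundant segments showed wide spread and no called difference. Trav7d-4 had 8.57 to 81.5 CPM in CD44- and 12.2 to 87.6 CPM in CD44+ libraries, with a log2 fold change of -0.06 ± 0.56 (edgeR adjusted p 0.984). Trav14d-3-dv8 had 20.4 to 81.4 CPM and 10.9 to 65 CPM, at -0.71 ± 0.48 (adjusted p 0.583). Trav6d-7, Trav3d-3, Trav7d-2, Trav6d-6, Trav4d-4 and Trav14n-3 had log2 fold changes between -0.22 and 0.21 with SEs of 0.44 to 0.64. By mean level per kilobase Trav14d-1 came first in both groups, with 193 CPM per kilobase in CD44- and 74.3 in CD44+ libraries.

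Subgroups Trav7 (7.67% to 18.3% of Trav reads in CD44- and 5.12% to 21.1% in CD44+ libraries), Trav6 (6.81% to 10.9% and 7.67% to 18.6%), Trav9 (5.73% to 17.7% and 3.96% to 12.5%) and Trav3 (3.07% to 7.70% and 4.18% to 16.4%) all overlapped. All 8 Trav9 segments tested had a negative fold change, and none was called.

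Libraries of the same CD44 group differed from one another far more than CD4+ libraries of one diet did. Among segments with a mean above 1 CPM, the median coefficient of variation was 24.9% in conventional CD4+ (71 segments), 28.1% in elemental CD4+ (69), 79.6% in CD44- (81) and 99.5% in CD44+ libraries (81). Of the 108 segments, 80 were detected in all conventional CD4+ libraries and 83 in all elemental ones. The same count was 43 in the CD44- group and 36 in the CD44+ group. Segments at 0 in 1 library and at 10 CPM or more in another numbered 28 in the CD44+ group, 20 in the CD44- group and none in either CD4+ group. The RNA input and the kit differed in the same way, and their part was not tested.

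Single segments show this pattern. Trav23 had 11.4 CPM in CD44- replicate 8 and no read in the other 6 CD44- libraries or any CD44+ library. Trav15d-2-dv6d-2 had 24.4 CPM in CD44+ replicate 7 and no read in the other 6 CD44+ libraries, while all 7 CD44- libraries had it, at 0.0905 to 20.1 CPM. Trav1 was at 0 in 4 of 7 CD44+ libraries and at 7.48 to 8.43 CPM in the other 3. In CD44- libraries it ran from 0 (3 libraries) to 7.31 CPM.

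Trav11d, the row that held most invariant natural killer T cell segment reads, had 0 to 24.1 CPM in CD44+ libraries (median 7.62). In CD44- libraries it had 0 to 9.43 CPM (median 4.81), and its log2 fold change was 0.95 ± 1.17 (edgeR adjusted p 0.817). Its partner Traj18 had 0.831 to 18.2 CPM and 2.00 to 6.96 CPM (0.45 ± 0.60, adjusted p 0.836). For Trav1 the difference was 0.21 ± 1.48 (adjusted p 0.979). Differences of this size could not be resolved with such errors.

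**Figure D5:**
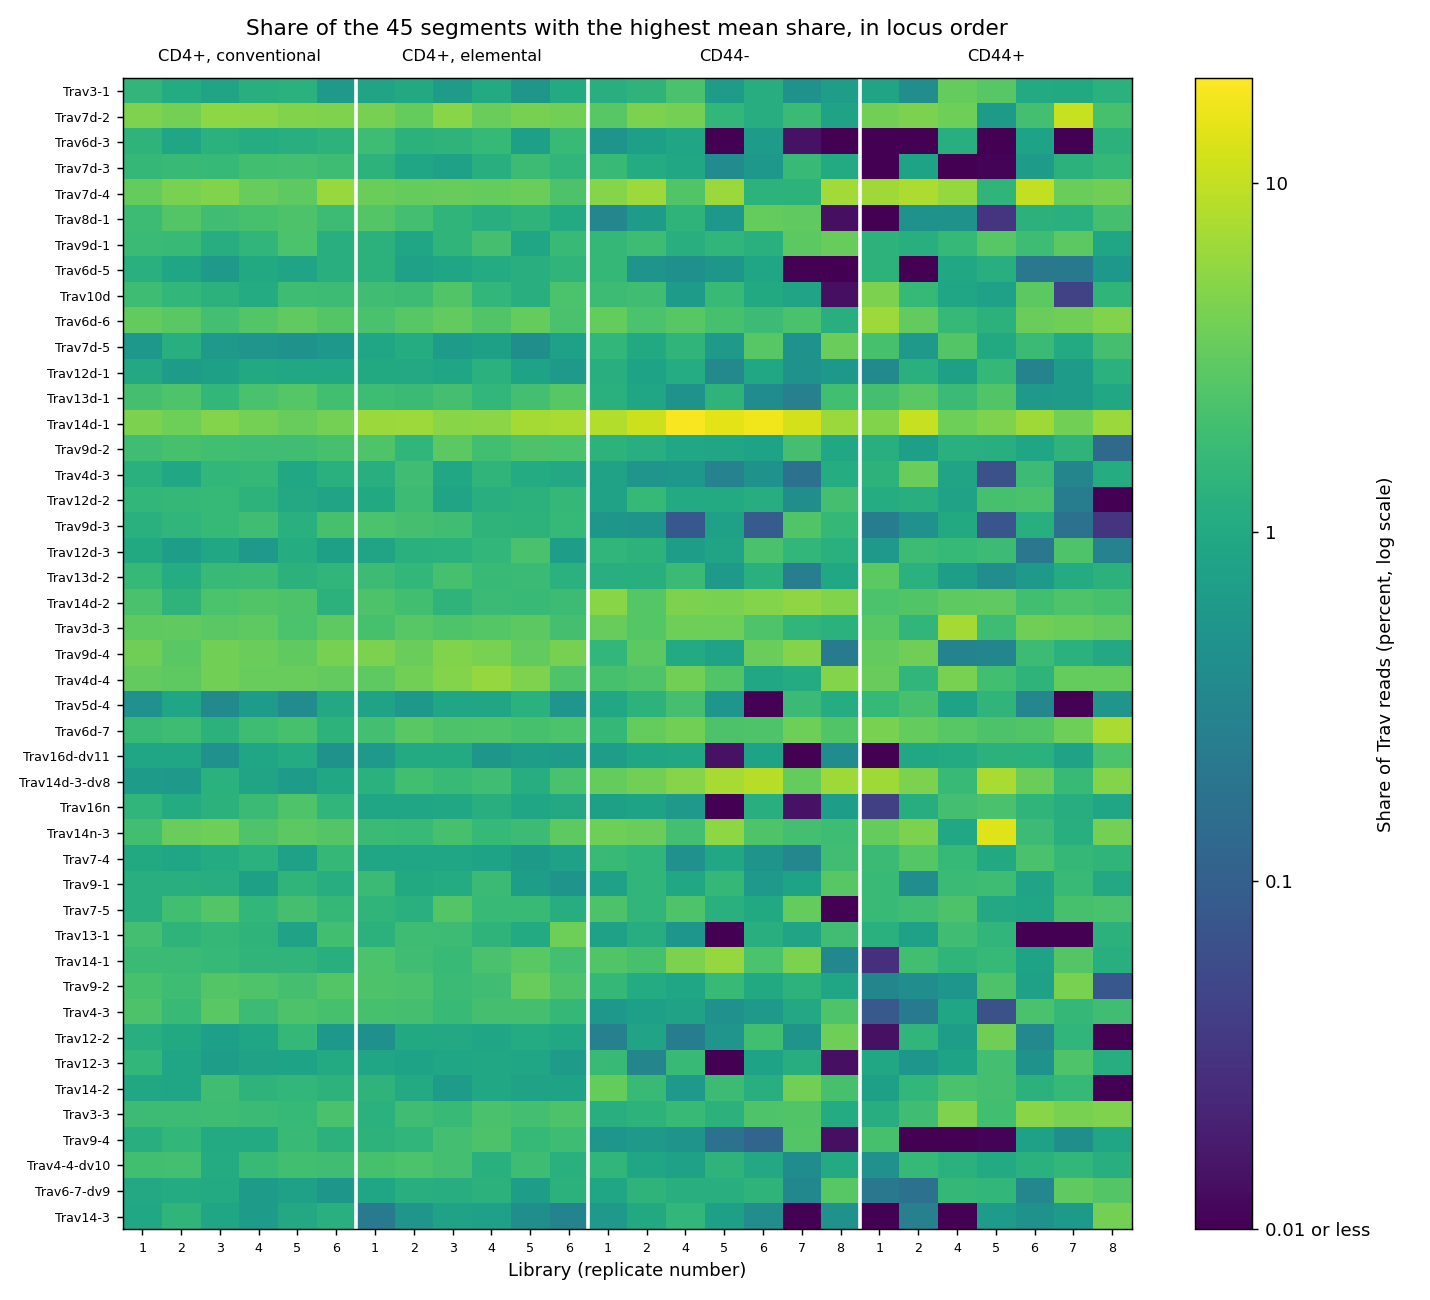
Share of Trav reads in percent, on a log colour scale, for the 45 segments with the highest mean share (rows, in locus order) in each of the 26 libraries (columns, by group and replicate number). Dark cells, at 0.01% or less, occur in the CD44- and CD44+ columns and not in the CD4+ columns, and Trav14d-1 is the brightest row in CD44- libraries with 6.38% to 18.8%.

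Reads were also spread over fewer segments in the CD44 libraries. The effective number of segments was 35.2 to 52.4 in CD44- libraries (median 38.2) and 37.6 to 47.3 in CD44+ libraries (median 40.2). At 5121 Trav reads, 64.8 to 85.2 segments were expected in CD44- and 60.7 to 73.03 in CD44+ libraries, with overlap. The top segment of a library took 7.07% to 18.8% of its Trav reads in CD44- and 6.75% to 13.99% in CD44+ libraries.

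Of the 25 receptor and recombination genes, 20 were tested between CD44+ and CD44- libraries and none was called by edgeR, although before adjustment 1 higher and 4 lower genes had a p under 0.05. Trac had 974 to 1675 CPM in CD44+ and 931 to 2895 CPM in CD44- libraries, at -0.28 ± 0.25 on the log2 scale (adjusted p 0.705). Cd4 had 60.05 to 116 CPM and 69.2 to 598 CPM, at -1.42 ± 0.43 (adjusted p 0.133). Among markers of other cells, 2 of 4 tested plasma cell markers and 2 of 8 myeloid and dendritic markers were called higher in CD44+ libraries. Over all genes tested, 0.920% were called in either direction. The plasma cell list summed to 2778 to 6319 CPM in CD44+ and 311 to 2005 CPM in CD44- libraries, and the myeloid list to 395 to 760 and 94.7 to 284 CPM. Their part in the Trav values was not tested.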

How the data were processed

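The authors deposited 1 table of 25814 genes per library with whole-number read counts. Total gene reads were used as the main count and unique gene reads as an alternative. Per the submitters' processing notes the genome build was GRCm38. No source used here names the aligner or counter. All 108 Trav segments have an exon length of 0 and no exon read in these tables. CPM was taken per 1000000 total gene reads. Each comparison was fitted over all genes of its 2 groups with edgeR 4.0.16 (R 4.3.3; filterByExpr, TMM factors, robust quasi-likelihood test, two-sided, Benjamini-Hochberg, threshold 0.05), also with segments summed by subgroup. SEs are the log2 fold change over the root of F. The fit was tested on simulated data. DESeq2 1.42.0 and other settings were alternatives. Named segments were the 10 with the highest mean CPM per comparison, up to 6 called per direction, Trav1, Trav11 and Trav11d, and the 6 highest or called subgroups; any others were named after their values were seen. Trav11n was not analysed here, and 1 gene of the invariant T cell marker list is not reported here. The members and lists were chosen with earlier results of these data known. Figures used Python 3.11.15 and matplotlib 3.10.9.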

Additional observations from a re-analysis of the deposited data

Results flagged for a closer look

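In each group, the highest or lowest library was compared with the others by Dixon's gap over range for the named segments, the shares of the named subgroups, summed Trav CPM and Trav per 1000 Trac reads. Chance marks about 1 group in 20, and 14 values were marked in 96 groups tested.

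Among CD4+ libraries, conventional replicate 3 had a Trav14 share of 16.6% where the others had 12.8% to 13.5%. Elemental replicate 6 had 6.43 CPM of Trav7d-4 where the others had 9.40 to 10.8, and elemental replicate 5 had 9.86 CPM of Trav9-2 where the others had 5.41 to 6.73. Trav11, with few reads in any library, had 0.141 CPM in conventional replicate 1, 0.0521 CPM in elemental replicate 3 and 0.181 CPM in CD44+ replicate 4, where the others of each group had 0. In CD44- replicate 2 it had 0.271 CPM, where the others had 0 to 0.0905.

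Among CD44- libraries, replicate 6 had 986 Trav reads per 1000 Trac reads where the others had 422 to 598, and replicate 7 had a Trav9 share of 17.7% where the others had 5.73% to 10.3%. Among CD44+ libraries, replicate 5 was marked for Trav14n-3 (119 CPM against 7.23 to 27.1), for a low Trav7 share (5.12% against 15.3% to 21.1%) and for a high Trav12 share (13.6% against 3.39% to 7.45%). Replicate 8 had 50.5 CPM of Trav6d-7 (others 18.2 to 30.1), and replicate 7 had 68.1 CPM of Trav7d-2 (others 5.28 to 29.1).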

How the results depend on the processing

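Between the diets the 7 called segments (3 higher, 4 lower) became 9 with no filter (6 higher, 3 lower), 8 with no scaling factor (2 and 6), 9 by DESeq2 (3 and 6), 4 with unique reads (1 and 3) and 3 with a replicate block (2 and 1), and 3 to 7 when 1 library was left out (3 without conventional replicate 5). The 1 called subgroup became 2 with no scaling factor and 3 by DESeq2, and 1 to 2 without 1 library. Deviations of same-numbered libraries correlated at -0.123 to 0.219 for the diets and -0.028 to 0.101 for CD44. Such values cannot show whether the numbers pair samples, since noise between libraries also lowers them. Both CD44 groups carry the same replicate numbers, and both lack number 3. In the CD44 comparison the block left the called segments and subgroups at 0. All genes called went from 101 to 44, and segments with an unadjusted p under 0.05 from 3 to 5. There, DESeq2 called 2 segments and 1 subgroup where edgeR called none; leaving out 1 library gave 0 to 1 segments (1 without CD44- replicate 8 or CD44+ replicate 7) and 0 subgroups. The log2 ratio of summed Trav reads turned from -0.14 to 0.10 between the diets per 1000 Trac reads, and ran from -0.18 to -0.10 (diets) and -0.27 to -0.10 (CD44) without 1 library. Fits with Trav library size and with unfiltered unique reads were added after seeing the data. Exon reads gave no value, since all are 0. The cause of each change was not tested.

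Directions also turned for differences near 0. With unfiltered unique reads the diet fold change of Trav9d-4 was -1.30, and that of summed Trav14 -0.062 (-0.045 filtered). With Trav library size Trav9-2 was at 0.023 and summed Trav4 at 0.053, and with no scaling factor summed Trav6 was at -0.008 and summed Trav13 at -0.037. In the CD44 comparison, Trav7d-4 was at 0.091 (no scaling factor), 0.006 (DESeq2 size factors and DESeq2), 0.16 (replicate block) and 0.38 (Trav library size), and Trav3d-3 at 0.143, 0.026, 0.014 and 0.356 in the same order. Trav14n-3 with the block was at -0.30 and Trav1 at -1.49 ± 2.82. Trav4d-4 with Trav library size was at 0.088, and summed Trav12 at 0.075. Summed Trav7 was at 0.038 (no scaling factor) and 0.31 (Trav library size), and summed Trav6 at 0.10 (no scaling factor), 0.003 (DESeq2 size factors and DESeq2), 0.009 (block) and 0.357 (Trav library size). Without 1 library, diet fold changes ran from -0.175 to 0.033 for Trav9-2, -0.251 to 0.083 for Trav1, -0.052 to 0.078 for summed Trav4 and -0.025 to 0.112 for summed Trav13. In the CD44 comparison they ran from -0.37 to 0.27 for Trav7d-4, -0.78 to 0.35 for Trav14n-3, -0.26 to 0.26 for Trav6d-7, -0.36 to 0.17 for Trav3d-3, -0.26 to 0.66 for Trav7d-2, -0.17 to 0.72 for Trav1, -0.23 to 0.17 for summed Trav7 and -0.23 to 0.12 for summed Trav6.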
